A study of Mus musculus with 39 samples.

Results

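The proteins of the mitochondrial ribosome were followed through the whole series as 1 gene family. Members were the rows of the count table whose gene symbol is Mrpl or Mrps followed by a number and at most 1 letter. The rule took 78 of 20333 transcripts, 49 named for the large subunit (Mrpl) and 29 for the small subunit (Mrps). They lie on 17 chromosomes, and their coding sequences run from 195 to 1326 bases with a median of 582 bases. The rule uses names and no measured value, and all 78 members passed the filters on low counts in footprints, in RNA and in both together. Transcripts are 1 per gene. Of the members, 30 large and 16 small subunit proteins have a bacterial counterpart, and 17 large and 10 small subunit proteins are found only in mitochondria. Mrps18a and Mrps30 carry small subunit names and sit in the large subunit, Mrps36 is now counted as a protein of the 2-oxoglutarate dehydrogenase complex, and Mrpl57 and Mrpl58 were kept apart from both classes.

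The samples were tumors of TH-MYCN mice, a neuroblastoma model in which the tyrosine hydroxylase promoter drives a MYCN transgene in cells of the sympathetic lineage. The labels call the tissue tumor, the cell type neuroblast and the genotype MYCN amplified for all mice, controls included, and give no age, sex or batch. There were 4 groups of 5 mice, each mouse giving 1 tumor. Controls ate a defined diet and had no drug. DFMO mice ate that diet and received difluoromethylornithine, an inhibitor of ornithine decarboxylase, the first enzyme of polyamine synthesis. Diet mice ate food without proline and arginine, both of which can be turned into ornithine. Combination mice had that food and the drug. Ribosome footprints, the pieces of mRNA that ribosomes shield from nuclease, were sequenced for all 20 mice. RNA from the same extracts was read for 19, all but control C5840, whose RNA is not used here.

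The mitochondrial ribosome stands in the mitochondrial matrix and makes the few proteins encoded by mitochondrial DNA, all of them parts of the respiratory chain and ATP synthase. Its RNAs come from mitochondrial DNA, whereas all of its proteins are encoded in the nucleus, translated by cytosolic ribosomes and imported. The footprints described here are therefore those of cytosolic ribosomes on the mRNAs of mitochondrial ribosomal proteins. Nuclear respiratory factors and GABP, an ETS family factor, are known activators of genes of this group.

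Footprint libraries held 2137838 to 12409644 counts and RNA libraries 10005384 to 51538191. Footprint depth differed by group, at 2137838 to 4570191 counts in controls, 5127567 to 9036088 with DFMO and 4701856 to 12409644 with the combination. Diet libraries held 3353371 to 8228409 and overlapped the controls. Transcripts detected in footprints were 13517 to 14165 in controls, at least 14469 with DFMO and at least 14636 with the combination. The part of this depth in the footprint changes was not tested. All 78 members had counts in every library, and together they took 0.273 to 0.364% of footprint counts and 0.698 to 0.945% of RNA counts. The RNA libraries of 3 controls (C5696, C5778, C5781) and 1 diet mouse (P5828) held few kinds of transcript: 8806 to 13387 were detected, against at least 14977 in the other 15. Cytosolic ribosomal proteins took 39.4 to 51.0% of the counts in those 4 and at most 32.6% in the others. They are called low-complexity below, and counts of RNA calls against control are given with and without them. Control footprint libraries C5696, C5781, C5812 and C5840 and diet footprint libraries P5702 and P5784 also detected under 14000 transcripts and were kept. All 10 neuroblast markers had footprints in every group, with a summed level of 1716 to 2429 CPM (counts scaled to a library of fixed size) over all 20 mice. The summed level of 4 erythroid markers was 1880 to 6744 CPM in controls, 400.5 to 965 with DFMO, 6756 to 22865 on the diet and 1346 to 6702 with the combination. The 5 macrophage markers summed to 449 to 724, 375 to 425, 353 to 528 and 299 to 401 CPM in the same order. The part of these cells in any result below was not tested, and in whole tumors fewer cells of a type and less RNA per cell cannot be told apart. Each library pair is a separate mouse, per the labels.

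The promoters of 69 of the 78 members were matched in RefSeq (GRCm38.p6), as windows from 250 bases before to 50 bases after the gene start. The letters CCGGAAG, a core of the GABP site, were searched on both strands and stood in 25 of these 69 windows (36.2%), against 12.5% of the 15898 matched genes of the count table. A YY1 site, AAGATGGCG, stood in 8 windows (11.6% against 2.09%). The palindromic NRF1 site stood in 3 (4.35% against 1.40%). The E-box CACGTG, a site of MYC family factors, stood in 5 (7.25% against 8.32%). With the 250 bases before the start alone, CCGGAAG stood in 17 (24.6% against 9.59%). CCGGAAG and AAGATGGCG can overlap by the letters AAG. The 250 bases before the start are shown for 4 members that recur below, 2 lower with the combination (Mrps26 and Mrpl34, the latter at -0.42 ± 0.12 in log2 footprints) and 2 higher (Mrpl42 and Mrpl41). Capitals mark CCGGAAG or its reverse complement CTTCCGG, and all are written 5′ to 3′ on the gene's strand.
Mrps26, chr2:130563507-130563756, plus strand: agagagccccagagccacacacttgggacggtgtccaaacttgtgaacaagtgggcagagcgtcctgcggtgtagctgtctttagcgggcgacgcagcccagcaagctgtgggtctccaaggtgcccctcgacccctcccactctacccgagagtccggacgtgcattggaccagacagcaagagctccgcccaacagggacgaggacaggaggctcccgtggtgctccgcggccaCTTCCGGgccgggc
Mrpl34, chr8:71464676-71464925, plus strand: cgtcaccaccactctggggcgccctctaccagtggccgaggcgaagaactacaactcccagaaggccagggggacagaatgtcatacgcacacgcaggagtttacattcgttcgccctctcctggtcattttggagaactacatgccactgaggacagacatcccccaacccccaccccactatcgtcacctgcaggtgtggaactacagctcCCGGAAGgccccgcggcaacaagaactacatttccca
Mrpl42, chr10:95501950-95502199, minus strand: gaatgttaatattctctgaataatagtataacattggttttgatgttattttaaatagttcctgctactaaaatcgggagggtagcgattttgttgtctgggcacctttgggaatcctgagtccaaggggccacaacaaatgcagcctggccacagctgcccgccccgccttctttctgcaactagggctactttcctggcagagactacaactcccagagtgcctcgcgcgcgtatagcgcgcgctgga
Mrpl41, chr2:24975099-24975348, minus strand: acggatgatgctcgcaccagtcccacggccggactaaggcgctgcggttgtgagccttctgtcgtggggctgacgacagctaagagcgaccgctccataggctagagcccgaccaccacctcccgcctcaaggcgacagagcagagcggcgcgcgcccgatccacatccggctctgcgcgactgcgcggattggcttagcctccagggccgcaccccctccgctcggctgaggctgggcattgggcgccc
The last 15 bases of the Mrps26 stretch lie after the start of its counted transcript in GENCODE M21. Both members that were lower hold the GABP letters in this stretch and both that were higher hold none of the 4 motifs in it. Mrpl42 does hold the YY1 letters in its full window, which includes 50 bases after the start. Of other members that fell, Mrpl58 holds the GABP letters in its 250 bases and Mrps23 holds none of the 4 motifs there. Over the family the letters did not divide that way. In the 300-base windows, CCGGAAG stood in 8 of 19 members whose footprints fell with the combination, in 3 of 8 that rose and in 14 of 42 that were not called. A match is a run of letters, not a measured site.

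In control tumors the members' footprint density per length (RPKM, reads per coding length and library total) spanned a 24.3-fold range around a median of 65.4. The medians were 71.4 RPKM for large and 60.1 for small subunit members. Mrps33, a small subunit protein found only in mitochondria, was highest with a median of 454.5 RPKM and a range of 444 to 592 over the 5 controls. Mrps36 (148.3) and Mrps21 (136.5), the counterpart of bacterial S21, followed, and Mrps27 (20.0, range 16.7 to 25.8), Mrps9 (28.2) and Mrps2 (37.0) were the lowest small subunit members. Among large subunit members Mrpl34 (213.6, range 167 to 232), Mrpl12 (192.9, range 180 to 241) and Mrpl33 (189.6, range 170 to 233) were the highest. The ranges of these 3 overlap, so their order is not resolved. Mrpl1 (18.7, range 17.1 to 22.3), Mrpl55 (27.9, range 18.3 to 41.4) and Mrpl19 (30.4) were the lowest of that subunit. Footprint RPKM divided by RNA RPKM, with the median over all footprint libraries and over the 15 other RNA libraries, had a median of 0.439 over the members. It was 1.01 over 11847 genes and 0.452 over 77 cytosolic ribosomal proteins. For 74 of the 78 members this ratio of levels was below the median of all genes. It ran from 0.0992 for Mrpl42, 0.150 for Mrpl24 and 0.169 for Mrpl54 up to 2.09 for Mrpl50.

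**Figure D1:**
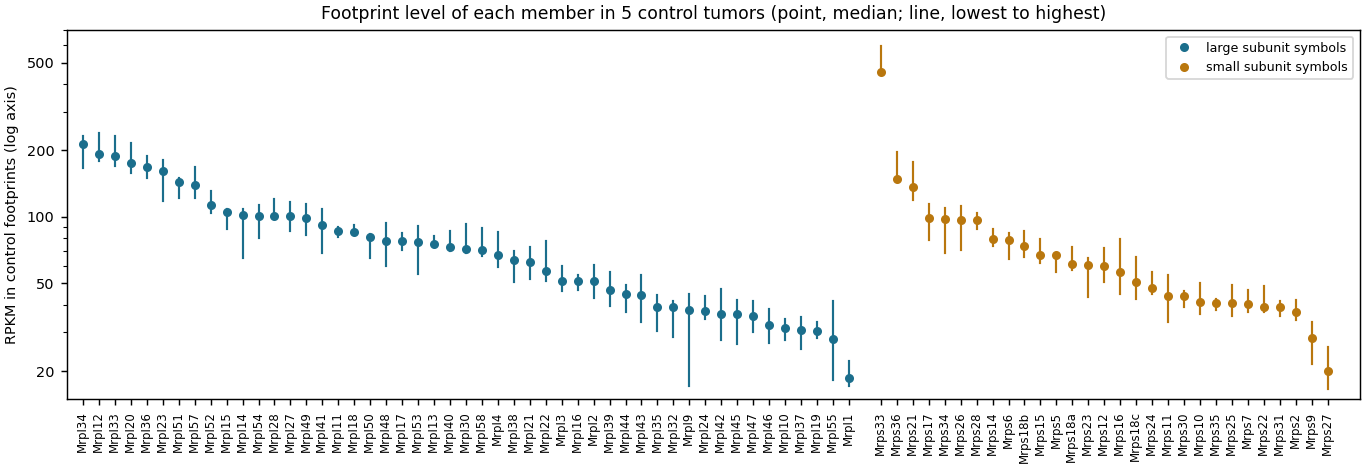
Footprint density (RPKM, log axis) of the 78 members in control tumors, large and small subunit apart, as the median of 5 mice with the lowest and highest mouse as a bar. Mrps33 stands highest at 454.5 RPKM, and Mrpl1, at 18.7 RPKM, and Mrps27, at 20.0 RPKM, are the lowest of each subunit.

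The combination lowered footprints on a set of mitochondrial ribosomal protein mRNAs of both subunits and raised them on a smaller set. Against controls 24 members fell and 8 rose (edgeR quasi-likelihood test, adjusted p under 0.05 over all genes). Of the 12095 genes tested, 15.5% fell and 16.7% rose, so the share of members that fell (30.8%) was above that of all genes and the share that rose (10.3%) below it. The median change of the members was -0.16 on the log2 scale, against 0.02 for all genes, and 56 of 78 members lay below 0. Large subunit members gave 14 falls and 6 rises of 49 (median -0.13), and small subunit members 10 falls and 2 rises of 29 (median -0.21). The changes were small, from -0.73 to 1.11. In 18 members all 5 combination tumors lay below all 5 controls and in 5 they lay above, against 10.1% and 9.81% of all genes. Of the 24 falls, 21 were called whichever 1 mouse of the 20 was left out; the exceptions were Mrpl51, Mrps11 and Mrps23. With library totals in place of TMM scaling, which put the median of all genes at 0.08, 17 of the 24 were still called, and with that scaling 17 members fell and 9 rose in all, where 12.4% and 17.8% of all genes did. All 8 rises were called with it, and 7 of the 8 in each fit without 1 mouse, the exception being Mrpl32. The combination tumors also had less macrophage signal in footprints than any control, as given above. The part of that signal in these falls was not tested.

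**Figure D2:**
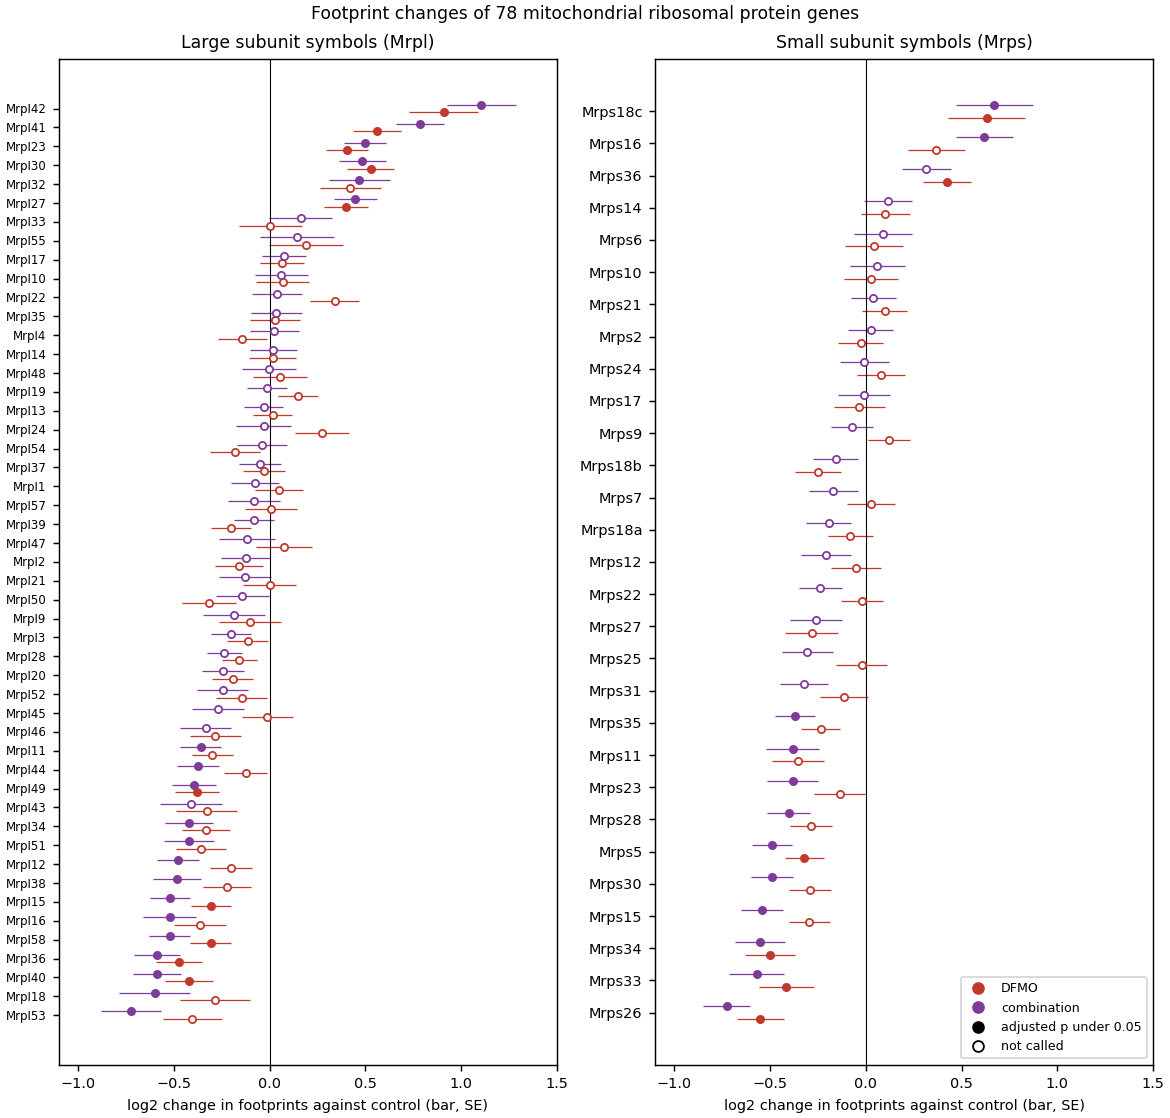
Log2 change in footprints of each of the 78 members for DFMO and for the combination against control (x axis, bars are SE), Mrpl and Mrps symbols in separate panels. Filled points passed the test, 24 below and 8 above 0 for the combination and 9 and 7 for DFMO.

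Mrps26, a small subunit protein found only in mitochondria, had the largest fall (ENSMUST00000145614, chr2:130563742-130568695, plus strand, GENCODE M21 on GRCm38). Its footprints were 62.7, 42.3, 60.5, 66.9 and 56.5 CPM in the 5 controls and 35.1, 36.2, 33.1, 36.1 and 33 CPM in the 5 combination tumors. No combination tumor reached the lowest control, and the change was -0.73 ± 0.12 (log2, SE; adjusted p 0.000156). Mrpl53, a large subunit protein found only in mitochondria, gave 29.3, 27.2, 20.3, 32.3 and 23.1 CPM in controls and 15.7, 17.3, 18.2, 14.2 and 14.4 CPM with the combination. The groups did not overlap, and the change was -0.72 ± 0.16 (adjusted p 0.00139). Its coding exon lies under an exon of another gene on the same strand, so reads could come from either. Mrpl18, the counterpart of the bacterial protein that holds 5S rRNA, gave 44.4, 45.8, 51.4, 45.7 and 46.5 CPM in controls and 40.8, 30.1, 28.7, 21.9 and 32.6 with the combination. All 5 lay below the controls, with PD5732 closest, and the change was -0.60 ± 0.18 (adjusted p 0.0157). 

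Mrpl40, also found only in mitochondria, stood at 52.6, 47.9, 46.8, 43.0 and 43.5 CPM in controls and at 32.1, 30.4, 35.2, 26.7 and 30.6 with the combination. The groups were apart, with a change of -0.59 ± 0.12 (adjusted p 0.00113). Mrpl36, the counterpart of the small bacterial protein L36, gave 50.8, 48.8, 60.5, 54.8 and 45.6 CPM in controls and 30.3, 32.8, 33.2, 39 and 37.9 with the combination. These did not overlap either, and the change was -0.59 ± 0.12 (adjusted p 0.000767). Mrpl12 forms the stalk to which elongation factors dock, and in human cells it is also reported to bind the mitochondrial RNA polymerase. It had 114, 118, 121, 145 and 107 CPM in controls and 83.4, 79.8, 86.8, 92.3 and 92.2 with the combination. It fell in all 5 by -0.48 ± 0.11 (adjusted p 0.00195).

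The largest rise was that of Mrpl42, a large subunit protein found only in mitochondria (ENSMUST00000218893, chr10:95480808-95501940, minus strand). It was at 15.1, 19.9, 17.4, 11.8 and 15.4 CPM in controls and at 35.6, 37.8, 31.8, 27.3 and 39.9 CPM with the combination. Every combination tumor was above every control, and the change was 1.11 ± 0.18 (adjusted p 0.000109). Mrpl41, likewise found only in mitochondria (ENSMUST00000045604, chr2:24974117-24975098, minus strand), gave 36.6, 27.6, 40.6, 44.0 and 35.2 CPM in controls and 56.4, 65.1, 55.2, 65.7 and 73.4 with the combination. The groups were again apart, at 0.79 ± 0.13 (adjusted p 0.000106). Mrps18c is a counterpart of bacterial S18. Its footprints were 20.6, 25.9, 29.4, 21.8 and 18 CPM in controls and 30.7, 44.7, 37.0, 34.3 and 37.3 with the combination, a change of 0.67 ± 0.20 (adjusted p 0.0145). All 5 lay above the controls, and its coding exons lie under a same-strand exon of another gene.

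Mrps16, the counterpart of bacterial S16, gave 17.9, 22.7, 31.1, 32.3 and 22.2 CPM in controls and 31.4, 38, 36.2, 45.9 and 42.2 with the combination. The change was 0.62 ± 0.15 (adjusted p 0.00293), although the lowest combination tumor lay within the control range. Mrpl23, the counterpart of a bacterial protein at the rim of the exit tunnel, gave 50.8, 78.8, 73.3, 73.3 and 64.8 CPM in controls and 93.1, 96.5, 104, 87.0 and 104 with the combination. It rose by 0.50 ± 0.11 (adjusted p 0.00145) with no overlap. Mrpl27, Mrpl30 and Mrpl32 also rose, by 0.45 ± 0.11, 0.49 ± 0.12 and 0.47 ± 0.16. These are counterparts of bacterial proteins, L27 being the one that reaches into the peptidyl transferase centre.

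**Figure D3:**
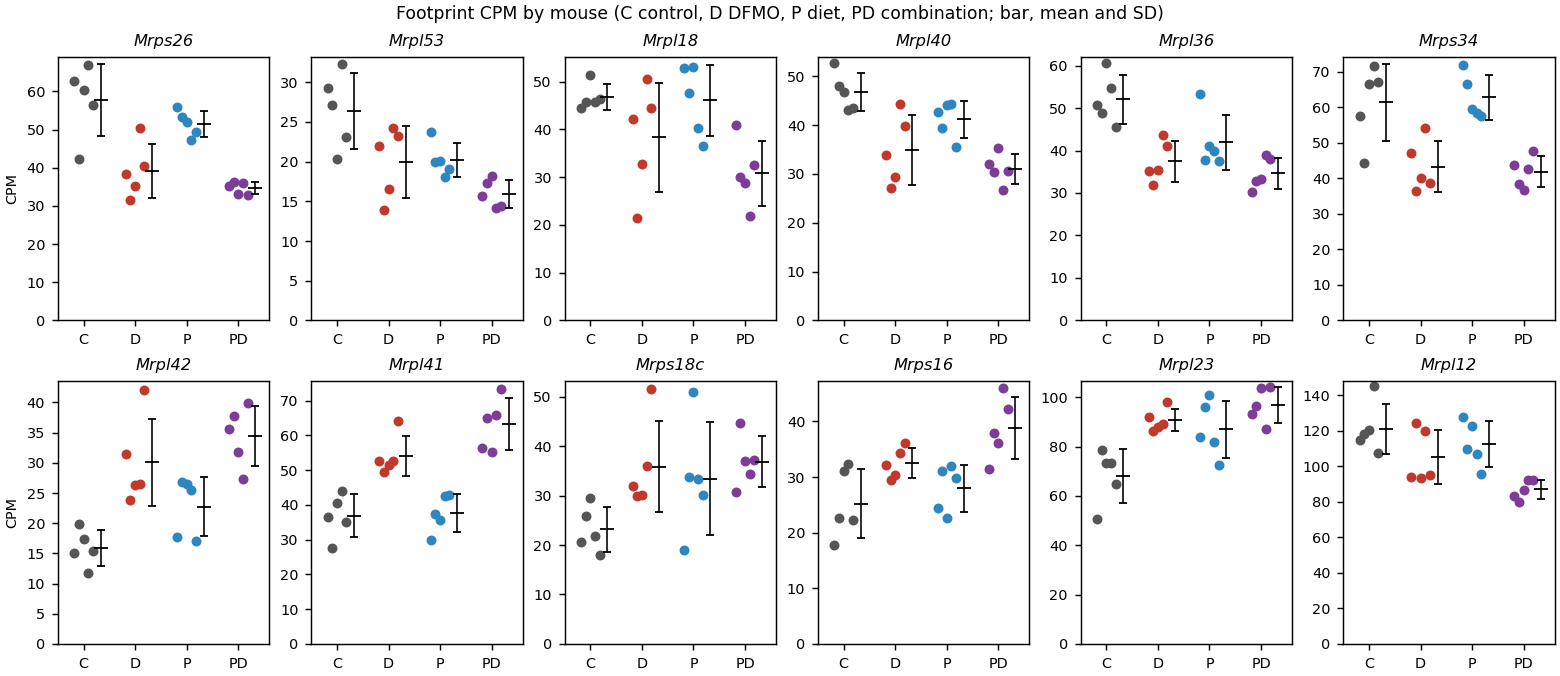
Footprints (y axis, CPM) of 12 members, 1 point per mouse in control (C), DFMO (D), diet (P) and combination (PD) groups of 5, with bars for the mean and SD. Mrps26 has all 5 combination tumors between 33 and 36.2 CPM, and Mrpl42 has all 5 between 27.3 and 39.9 CPM.

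Members were also read by their place in the ribosome. Of the 10 small subunit proteins found only in mitochondria, 5 fell and none rose with the combination, and all 10 changes were below 0 (median -0.35). The 16 small subunit proteins with a bacterial counterpart gave 4 falls and 2 rises with a median of -0.01. In the large subunit, the 17 proteins found only in mitochondria gave 6 falls and 2 rises (median -0.27), and the 30 with a bacterial counterpart 7 falls and 4 rises (median -0.05). Of all genes 15.5% fell and 16.7% rose, as above, and the classes were not tested against each other.

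Proteins of known role were followed whatever their change. Mrps5, whose bacterial counterpart takes part in decoding accuracy, fell from 71.4, 76.2, 91.2, 86.4 and 88.2 CPM in controls to 66.1, 60.3, 55.9, 61.0 and 50.5 CPM with the combination. The groups did not overlap, and the change was -0.49 ± 0.10 (adjusted p 0.000972). Mrps34, found only in mitochondria and linked in humans to Leigh syndrome, stood at 57.7, 44.3, 66.7, 71.6 and 67.2 CPM in controls and 43.7, 38.4, 36.8, 42.7 and 47.8 with the combination. It fell by -0.55 ± 0.13 (adjusted p 0.00259), with control C5778 inside the combination range. Mrps30, in the large subunit despite its name, was 56.8, 51.2, 57.6, 61.2 and 57.4 CPM in controls and 44.1, 36.2, 36.7, 40.2 and 45.0 with the combination (-0.49 ± 0.11, adjusted p 0.00174), with no overlap. Mrps15 (-0.54 ± 0.11), Mrpl44 (-0.37 ± 0.11), which has an RNase III fold, and Mrpl11 (-0.36 ± 0.11), at the stalk base, also fell. So did Mrpl58 (-0.52 ± 0.11), a peptidyl-tRNA hydrolase that is also a structural part of the large subunit. Mrps12 (-0.21), at the decoding centre, Mrps7 (-0.17), Mrps22 (-0.24), Mrps18a (-0.19), Mrps18b (-0.16), Mrpl3 (-0.20), Mrpl24 (-0.03) and Mrpl37 (-0.05) did not pass the test.

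Summed over each subunit, footprint counts of large subunit members stood to those of small subunit members as 1.72, 1.73, 1.68, 1.69 and 1.75 in the controls. The ratio was 1.77, 1.87, 1.81, 1.76 and 1.78 with DFMO, and 1.74, 1.70, 1.80, 1.72 and 1.70 on the diet. It was 1.85, 1.78, 1.80, 1.85 and 1.89 with the combination. All DFMO and all combination tumors lay above all controls, while diet tumors overlapped them. Mrps33 had the most footprints of all Mrps members, at 142 to 188 CPM in controls. It was at 75.5 to 151 CPM with DFMO and 87.8 to 124 with the combination. Mrps33 is part of the Mrps sum and the ratio was not taken without it. The separation therefore holds for sums that include Mrps33 and is not to be read as one of the other members. Since Mrps and Mrpl names do not fully follow the subunits, this is a ratio of symbol groups. No test is given for a score over the members.

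**Figure D4:**
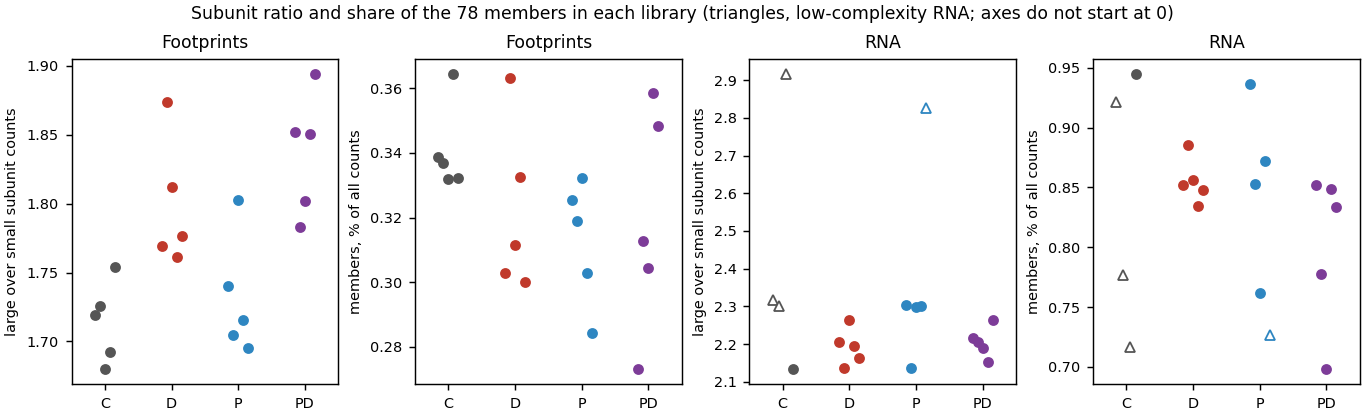
Ratio of summed Mrpl to Mrps counts and share of all counts taken by the 78 members (%), for footprints (left pair of panels) and RNA (right pair), 1 point per library in control (C), DFMO (D), diet (P) and combination (PD) groups; open triangles are low-complexity RNA libraries and the axes do not start at 0. In footprints the ratio, with Mrps33 in the Mrps sum, lies at 1.68 to 1.75 in controls and at 1.78 to 1.89 in combination tumors. In RNA 2 low-complexity libraries stand apart at 2.92 and 2.83.

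DFMO alone moved members in both directions. Against controls 9 members fell and 7 rose, 11.5% and 8.97% of the family, where 8.84% and 9.24% of all genes did, so the counts are close to the background. The median change was -0.09 against 0.02 for all genes. Large subunit members gave 5 of each, and small subunit members gave 4 falls and 2 rises. All 5 DFMO tumors lay below the controls for 3 members and above them for 5, against 6.07% and 6.04% of all genes. The falls were Mrpl15, Mrpl36, Mrpl40, Mrpl49, Mrpl58, Mrps5, Mrps26, Mrps33 and Mrps34, and the rises Mrpl23, Mrpl27, Mrpl30, Mrpl41, Mrpl42, Mrps18c and Mrps36. Left out 1 mouse at a time, 3 of the falls (Mrpl36, Mrps26 and Mrps34) and 4 of the rises were called in every fit. With no filter on low counts 5 of the 9 falls were called, the exceptions being Mrpl15, Mrpl58, Mrps5 and Mrps33, and with library totals 7 were, all but Mrpl15 and Mrpl58. All 7 rises were called under both.

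Mrps26 was at 38.3, 31.6, 35.3, 50.4 and 40.5 CPM with DFMO, a change of -0.55 ± 0.12 (adjusted p 0.00442). Mouse D5806, at 50.4 CPM, was inside the control range. Mrps34 gave 47.0, 36.5, 40.1, 54.3 and 38.8 CPM (-0.50 ± 0.13, adjusted p 0.0111), overlapping control C5778. Mrpl36 gave 35.3, 31.8, 35.4, 43.6 and 41.0 CPM, all below the controls (-0.47 ± 0.12, adjusted p 0.00892). Mrpl40 (33.9, 27.2, 29.3, 44.3 and 39.7 CPM) fell by -0.42 with an adjusted p of 0.0225, a call lost without control C5696 or DFMO mouse D5747 or D5802. Mrps33 (115, 75.5, 107, 146 and 151 CPM, against 143, 188, 147, 174 and 142 in controls) fell by -0.42 ± 0.14. That call, at an adjusted p of 0.0459, was lost in 14 of the 20 fits without 1 mouse, with values up to 0.121.

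Mrpl42 was at 31.4, 23.9, 26.4, 26.6 and 42.1 CPM with DFMO, all above the controls (0.91 ± 0.18, adjusted p 0.00204). Mrpl41 gave 52.6, 49.5, 51.4, 52.6 and 64.1 CPM, also all above (0.56 ± 0.13, adjusted p 0.00491). Mrps18c gave 31.9, 29.8, 30.1, 36.1 and 51.6 CPM (0.63 ± 0.20, adjusted p 0.0333), with D5823 far above the rest. Without D5823 its adjusted p was 0.0992, and without control C5696, C5812 or C5840 it was 0.0750, 0.0694 and 0.0883. Mrpl30 gave 43.9, 58.1, 49.9, 55.0 and 60.1 CPM against 33.4, 32.8, 35.6, 38.6 and 44.4 in controls (0.53 ± 0.12, adjusted p 0.00543), touching the control range. Mrps36 gave 72.9, 52.2, 61.8, 68.9 and 72.9 CPM against 44.9, 44.9, 50.1, 60.5 and 44.7 in controls (0.42 ± 0.13, adjusted p 0.0231). It too overlapped the controls, and its call was lost without D135, D5823, C5696, C5778 or C5840, at adjusted p of 0.0506 to 0.0586. In footprints DFMO tumors had the least erythroid signal of the 4 groups and less macrophage signal than any control, as given above. Their pancreas markers summed to 3.95 to 25.2 CPM against 26.5 to 854 in controls, and 4 Schwann cell markers to 3.42 to 44.3 against 0.458 to 2.59, both without overlap. The part of these signals in the changes was not tested.

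The diet without proline and arginine, given alone, changed no member's footprints at the threshold, and 0% of all genes passed it. The members' median change was 0.01 against 0.00 for all genes, and 9 members had an unadjusted p under 0.05. With DESeq2 no member was called either. The smallest p values were those of Mrpl49 (-0.38 ± 0.11, adjusted p 0.213), found only in mitochondria, and Mrpl23 (0.34 ± 0.11, adjusted p 0.237). Mrpl23 stood at 83.9, 95.9, 101, 81.7 and 72.4 CPM on the diet, overlapping the controls. 

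Adding DFMO to the diet lowered footprints on members of both subunits. Against diet tumors 23 members fell and 3 rose, where 14% and 14.8% of all genes did. The median change was -0.16 against 0.01 for all genes. Large subunit members gave 12 falls and 2 rises, and small subunit members 11 falls and 1 rise. The groups did not overlap in 14 members that were lower and 2 that were higher, against 8.72% and 8.42% of all genes. This count depended on the scaling. With library totals, which moved the median of all genes to 0.19 and the share of rises among all calls from 51.4% to 76.7%, 5 members fell (Mrpl18, Mrps5, Mrps26, Mrps30 and Mrps34) and 8 rose, where 6.88% and 22.6% of all genes did. Relative to all genes the members' median was -0.17 with that scaling. Of the 23 falls, 12 were called in every fit without 1 mouse. Diet tumors had the highest erythroid signal, 6756 CPM or more, against at most 6702 with the combination. The 5 pancreas markers summed to 2.92 to 33.7 CPM on the diet and 110 to 1186 with the combination, without overlap, and the 4 adrenal cortex markers to 2.33 to 67.6 and 37.0 to 126 CPM, with overlap. The part of these signals in the changes was not tested.

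Mrps34 was at 71.8, 66.6, 59.6, 58.4 and 57.5 CPM on the diet, and all 5 combination tumors lay below (-0.58 ± 0.13, adjusted p 0.00195). Mrps26 gave 55.9, 53.3, 51.9, 47.3 and 49.3 CPM on the diet, again all above the combination (-0.57 ± 0.12, adjusted p 0.00161). Mrpl18 gave 52.9, 47.6, 53.2, 40.4 and 36.6 CPM on the diet and fell by -0.57 ± 0.18, with overlap. Its adjusted p of 0.0209 became 0.0640 without PD5805 and 0.0525 without P5702. Mrpl52, a large subunit protein found only in mitochondria, gave 61.0, 52.7, 60.0, 42.9 and 43.2 CPM on the diet and 29.8, 36.9, 31.7, 38.2 and 44.0 with the combination. It fell by -0.52 ± 0.13 (adjusted p 0.00506) with overlap of 1 mouse. Mrps30 gave 56.8, 53.7, 68.1, 53.6 and 53.8 CPM on the diet (-0.50 ± 0.11, adjusted p 0.00181), all above the combination. The rises were Mrpl41 (0.74 ± 0.12, adjusted p 0.000245), Mrpl42 (0.60 ± 0.17, adjusted p 0.011) and Mrps16 (0.46, adjusted p 0.0201). Mrpl41 stood at 29.8, 37.3, 35.7, 42.6 and 42.8 CPM on the diet and Mrpl42 at 17.7, 26.8, 26.6, 25.4 and 17.1 CPM, both below all combination tumors. Mrps16 was no longer called without PD5805, PD5825, P5702 or P5784.

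Adding the diet to DFMO changed no member at the threshold, where 3.22% of all genes passed, and DESeq2 called none. The members' median was -0.08 against -0.01 for all genes, and 10 members had an unadjusted p under 0.05. The members with the smallest p were Mrpl12 (-0.28, adjusted p 0.156) and Mrpl22 (-0.30, adjusted p 0.195). Mrpl12 was at 94.0, 124, 93.2, 119.6 and 95.1 CPM with DFMO, all above the 5 combination tumors. The interaction, which asks whether DFMO acts differently on the 2 diets, also passed for no member, against 0.372% of all genes. Its median was -0.09 against -0.02, 3 members had an unadjusted p under 0.05, DESeq2 called none, and Mrps9 (-0.41, adjusted p 0.257) and Mrpl49 (0.37, adjusted p 0.328) came nearest. The comparisons with control share their control mice, so the counts for DFMO, diet and combination are given side by side and are not set against each other.

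Other nuclear genes of mitochondrial translation were listed beside the members, and their counts are to be read against the 15.5% of all genes that fell and 16.7% that rose. Of 27 tested genes for mitochondrial ribosome assembly and rRNA modification, 6 fell and none rose with the combination against control (median -0.21). These included Ngrn (-0.67 ± 0.12, adjusted p 0.000217), which is needed for 16S rRNA, C1qbp (-0.43 ± 0.09, adjusted p 0.00133), a matrix protein, and Noa1 (-0.50 ± 0.13, adjusted p 0.0063), a GTPase of small subunit assembly. Of 21 translation factors 4 fell and 1 rose. Gfm1 (-0.34 ± 0.10) and Tsfm (-0.51 ± 0.14), both elongation factors, and Taco1 (-0.58 ± 0.16), a translational activator of cytochrome oxidase subunit I, fell, whereas Slirp (0.48 ± 0.13), the partner of Lrpprc in mitochondrial mRNA stability, rose. Lrpprc itself fell by -0.40 ± 0.12. Of 12 genes of mitochondrial DNA transcription and replication, Tefm (-0.76 ± 0.16), an elongation factor of the mitochondrial RNA polymerase, and Polrmt (-0.41 ± 0.12), the polymerase itself, fell, and Top1mt (0.86 ± 0.33), a topoisomerase, rose. Of 17 mitochondrial aminoacyl-tRNA synthetases 4 fell and none rose, Vars2 (-0.55 ± 0.15) and Mars2 (-0.56 ± 0.17) among them. Of 7 tested mitochondrial ribosomal proteins kept outside the classes above, 3 fell, which were Aurkaip1 (-0.39 ± 0.12), Gadd45gip1 (-0.42 ± 0.16) and Mrpl58. This list includes the members Mrpl57 and Mrpl58, so the fall of Mrpl58 is already among the members' falls given above. Dap3 (-0.13), Ptcd3 (-0.15) and Chchd1 (-0.05), all small subunit proteins, did not pass. For comparison, 78 cytosolic ribosomal proteins gave 11 falls and 6 rises with a median of -0.02.

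In RNA the members' median change lay below that of all genes in every treated group. With DFMO this median was smaller in size without the low-complexity libraries, although 66 of 78 members then lay below 0, against 60 with all libraries. The part of the low-complexity controls in the shift was not tested, and leaving them out also leaves 1 control. With DFMO 45 members fell and 3 rose, where 17.5% and 21.9% of all genes did, and the median change was -0.75 against 0.28. Without the low-complexity libraries, which leaves C5812 as the only control, 13 fell and none rose, where 6.92% and 8.03% of all genes did, and the medians were -0.44 and 0.09. With library totals 11 fell and 14 rose, where 4.28% and 38.4% of all genes did, and the members' median was 0.22 against 1.13 for all genes, so the sign of the members' median depends on the scaling, and it was below that of all genes under each of the 3. The 12 members called both with and without the low-complexity libraries were Mrps30, Mrpl33, Mrps33, Mrpl51, Mrps35, Mrps28, Mrps6, Mrps36, Mrpl39, Mrps10, Mrpl13 and Mrpl32. Without those libraries the spread of the lone control is taken to be that of the other groups. RNA markers of other cell types also differed. With DFMO the macrophage sum was 398 to 501 CPM, against 148 to 355 in controls, and the fibroblast sum 280 to 455 against 148 to 279. The erythroid sum was 565 to 2021 CPM against 2900 to 63530, and the sum of 10 neuroblast markers 1332 to 1825 against 555 to 1265. None of these 4 ranges overlapped that of the controls, and their part in the RNA changes was not tested. In footprints the macrophage sum moved the other way, at 375 to 425 CPM with DFMO against 449 to 724 in controls.

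**Figure D5:**
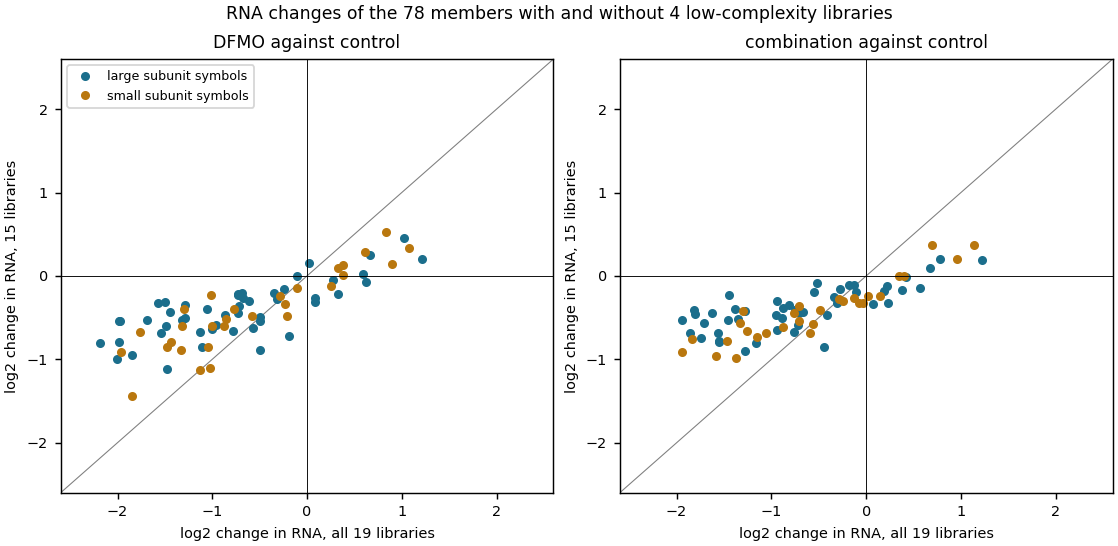
Log2 change in RNA of each of the 78 members with all 19 libraries (x axis) and with the 15 libraries left without the low-complexity ones (y axis), for DFMO and for the combination against control; the diagonal marks equal values. The points spread from -2.18 to 1.21 along x for DFMO and are closer to 0 along y for most members.

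Mrps33 RNA was at 325, 412, 316 and 244 CPM in the 4 controls (C5696, C5778, C5781 and C5812) and 81.9, 80.3, 113, 97.5 and 78.6 CPM with DFMO. No DFMO library came near a control, and the change was -1.84 ± 0.26 (adjusted p 8.86e-05), or -1.44 ± 0.23 (adjusted p 0.00106) without the low-complexity libraries. Mrps28, the counterpart of bacterial S1, was at 161, 309.8, 280.3 and 103 CPM in controls and 55.0, 51.9, 64.8, 53.6 and 48.0 with DFMO. It fell by -1.96 ± 0.36 (adjusted p 0.000593), and by -0.91 ± 0.25 (adjusted p 0.0223) without them. Mrpl14, the counterpart of bacterial L14, was at 161, 284, 475 and 92.7 CPM in controls and 63.8, 61.4, 76.9, 61.0 and 56.2 with DFMO. Its change of -1.98 ± 0.42 (adjusted p 0.00154) became -0.54 ± 0.27 (adjusted p 0.18) without them. Mrpl1 (-2.18), Mrpl51 (-2.01), Mrpl39 (-1.99) and Mrpl23 (-1.97) had falls of like size, which became -0.80, -1.0, -0.79 and -0.54. The rises were Mrps27, Mrpl10 and Mrps23. Mrps27, found only in mitochondria, was at 16.1, 11, 7.30 and 25.1 CPM in controls and 30.1, 30.3, 37.6, 32.4 and 28.4 with DFMO. The highest control was the complex library, and the change of 1.07 ± 0.31 (adjusted p 0.0109) was 0.34 ± 0.23 (adjusted p 0.344) without the others.

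With the combination 41 members fell in RNA and 4 rose, where 17.7% and 23.1% of all genes did, with medians of -0.71 and 0.31. Without the low-complexity libraries 9 fell and none rose, where 6.97% and 8.62% of all genes did, and with library totals 13 fell and 8 rose, where 4.89% and 33.9% did. The 8 called both ways were Mrps30, Mrpl11, Mrps5, Mrpl37, Mrps33, Mrps28, Mrpl12 and Mrps25. Mrps28 gave 60.9, 53.3, 41.5, 47.1 and 74.6 CPM, all below the controls (-1.94 ± 0.36, adjusted p 0.00057; -0.91 ± 0.25 without those libraries). Mrps33 gave 124, 129, 101, 118 and 153 CPM, also all below (-1.38 ± 0.25, adjusted p 0.000593; -0.99 ± 0.23 without). Mrpl12 gave 268, 197, 161, 214 and 305 CPM against 559, 448, 793 and 420.4 in controls (-1.28 ± 0.31, adjusted p 0.00375; -0.90 ± 0.27, adjusted p 0.0295 without). The largest falls otherwise were Mrpl14 (-1.95), Mrpl24 (-1.85), Mrps15 (-1.84) and Mrpl23 (-1.81), which were -0.52, -0.69, -0.76 and -0.40 without them and no longer called. The 4 rises, Mrpl3 (1.23), Mrps2 (1.13), Mrps27 (0.96) and Mrpl10 (0.68), were likewise lost. Mrps26, the member with the largest footprint fall, had RNA at 77.4, 65.1, 37.7 and 74.9 CPM in controls and 71.1, 49.9, 48.0, 50.1 and 83.6 with the combination. These overlapped, with a change of -0.08 (adjusted p 0.802). In RNA the neuroblast markers summed to 1574 to 2443 CPM with the combination and the pancreas markers to 11.2 to 380 CPM, both above every control library, and their part in these changes was not tested.

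On the diet alone 3 members fell in RNA and none rose, where 1.13% and 2.27% of all genes did. These were Mrps21 (-1.46), Mrps33 (-0.93) and Mrpl16 (-0.89), and none was called without the low-complexity libraries, whereas 44 members were called when P5828 alone was left out. The share of all genes called without P5828 is not given, so the 44 is not a result about the members. Against diet tumors the combination lowered 8 members and raised none, where 8.68% and 9.03% of all genes fell and rose. The falls were Mrpl12 (-1.25 ± 0.30, adjusted p 0.00692), Mrps12 (-1.16 ± 0.32), Mrpl2 (-1.02 ± 0.34), Mrpl11 (-0.95 ± 0.29), Mrpl28 (-0.93 ± 0.28), Mrps5, Mrps17 and Mrps26. All 8 were also called without the low-complexity libraries, where 11 fell and 2 rose, against 17% and 18.7% of all genes. Mrpl12 was at 471, 322, 339.7, 469.9 and 1120 CPM on the diet, the last being P5828, and every combination library lay below these. Between combination and DFMO no member passed, where 5.13% of all genes did, and 4 had an unadjusted p under 0.05. DESeq2 called 2, and the share of all genes it called is not given. Without the low-complexity libraries the changes of Mrpl33 and Mrpl16 were 0.71 ± 0.19 and 0.59 ± 0.15. The interaction passed for 6 members, all upward, where 2.44% of all genes passed upward and 3.5% downward. They were Mrpl16 (1.50 ± 0.34), Mrps21 (1.45 ± 0.42), Mrpl33 (1.40 ± 0.40), Mrps33 (1.40 ± 0.35), Mrps36 (1.27 ± 0.37) and Mrps10 (1.01 ± 0.26). All but Mrps21 were also called without the low-complexity libraries. Left out 1 mouse at a time in 19 fits, the call was lost in 15 for Mrps21 and for Mrps36, in 14 for Mrpl33, in 10 for Mrps10, in 6 for Mrps33 and in 0 for Mrpl16. Only Mrpl16 and Mrps33 were called with no filter on low counts. The RNA libraries of D135, D5823 and PD5732 had the lowest correlations with the footprints of the same mice (-0.145, -0.191 and -0.338). These are correlations of deviations from group means. Without these libraries edgeR called no member, with adjusted p of 0.173 to 0.258 for the 6 members above.

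Translational efficiency, the change in footprints relative to the change in RNA, rose for many members whose RNA fell. With DFMO it rose for 38 members and fell for 6, where it rose for 15.1% and fell for 16.3% of 11847 genes. Without the low-complexity libraries it rose for 11 and fell for 1 (Mrps11), where 5.43% and 5.49% of all genes did, and with library totals it rose for 8 and fell for 18, where 3.11% and 36.7% did. With the combination 36 rose and 4 fell, where 13.7% and 14% of all genes did. Without the low-complexity libraries only Mrpl41 and Mrpl42 rose and none fell, where 2.25% and 3.25% of all genes did, and with library totals 8 rose and 13 fell, where 3.23% and 26% did. With the mouse as a block, which uses that both libraries came from 1 extract, 34 rose and 6 fell with DFMO, where 12.3% and 17.1% of all genes did. With the combination it was 32 and 5, where 11.2% and 14.5% did.

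The efficiency of Mrpl42 rose with DFMO under each of these settings. Its RNA fell with DFMO from 425, 519.8, 344 and 307 CPM in controls to 189, 195, 235, 189 and 184 CPM (-1.01 ± 0.25, adjusted p 0.00412) while its footprints rose. Without the low-complexity libraries that RNA change was -0.63 ± 0.24 (adjusted p 0.0793) and no longer called. Its efficiency change was 1.98 ± 0.33 (adjusted p 0.000125), and it was 1.54 ± 0.31 (adjusted p 0.00195) without the low-complexity libraries, 0.94 ± 0.26 with library totals and 1.93 (adjusted p 0.00222) with the mouse as a block. With the combination its RNA was 292, 264, 202, 287 and 317 CPM (-0.55, adjusted p 0.0798; -0.20, adjusted p 0.622 without those libraries), and its efficiency change was 1.74 ± 0.33, or 1.26 ± 0.31 (adjusted p 0.0136) without those libraries. Mrpl41 changed by 1.64 ± 0.40 with DFMO and by 1.76 ± 0.40 with the combination, and by 0.96 ± 0.30 (adjusted p 0.0373) and 1.04 ± 0.30 (adjusted p 0.0349) without them. The largest changes with DFMO were Mrpl23 (2.40), Mrpl1 (2.24) and Mrpl14 (2.01) upward and Mrps27 (-1.30), Mrpl3 (-1.25) and Mrps11 (-1.11) downward. Of these only Mrps11 was called without the low-complexity libraries. On the diet Mrps21 (1.44 ± 0.35), Mrpl42 (1.21 ± 0.33) and Mrps10 (0.99 ± 0.25) rose, where 1.01% of all genes rose and 3.75% fell. None of these 3 was called with the mouse as a block or without the low-complexity libraries. Between combination and DFMO no member passed, where 0% of all genes did, and 3 had an unadjusted p under 0.05. Against diet none passed, where 0.819% of all genes did, and 10 had an unadjusted p under 0.05. The interaction passed for none, where 0.355% of all genes passed, with 22 at an unadjusted p under 0.05 and 11 called by DESeq2. The share of all genes that DESeq2 called is not given.

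Members share features of position and sequence that could bear on the counts. A divergent protein-coding gene starts within 1000 bases upstream of 20 of 78 members (25.6%), against 7.83% of 20222 counted transcripts. Coding exons of 13 members lie under an exon of another gene on the opposite strand, among them Mrpl12, Mrpl18, Mrpl27, Mrpl44, Mrpl58, Mrps30 and Mrps34. Those of 4 lie under one on the same strand, Mrpl33, Mrpl53, Mrps6 and Mrps18c. Whether counting used strand is not given in the sources used here, so values of these members are uncertain, as are those of members with 1 of the 5 annotated pseudogenes named after the family. Codons ending in A made up a median of 20.6% of the members' coding sequences, against 17.8% over 12049 genes. Across the 78 members that share had a Spearman correlation of 0.30 with the footprint change under DFMO, against 0.20 across those genes. This is a description across genes that share libraries, and genes are not independent replicates.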

How the data were processed

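Tumors of 20 mice gave 20 ribosome footprint and 19 RNA libraries. The authors deposited a count for each transcript, 1 transcript per gene, and the RPKM value that goes with it. For 78 of 78 members the deposited RPKM equals count over library total over coding length within 5%. Cutadapt, Bowtie2, HISAT2 and the build GRCm38 are named in the submitters' processing notes; versions, counting tool and use of strand: not given in the sources used here. All columns were used (0 left over).

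The count test was that of edgeR 4.0.16 in R 4.3.3 (robust quasi-likelihood F test, TMM scaling, filterByExpr, all 4 groups in 1 fit per assay). For efficiency, 1 fit over 39 libraries gave an assay by group term. The Benjamini-Hochberg adjustment took in every gene tested, and a call is an adjusted p under 0.05. CPM are counts over the TMM-scaled total, and fits kept the edgeR default for the prior count. RPKM served only for levels between genes. Depth is given in the report. Python 3.11.15 with pandas 2.3.3, numpy 2.4.6, scipy 1.17.1 and matplotlib 3.10.9 made tables and drawings, and each model was tested on simulated data.

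Alternatives were RLE scaling, library totals alone, no filter, DESeq2 1.42.0, the mouse as a block, leaving out the low-complexity RNA libraries (under 14000 transcripts), leaving out RNA libraries far from their own footprints, and leaving out each mouse. The mouse numbers pair libraries of different assays because both came from 1 extract. Deviations of the 19 pairs from their group means correlated with a median of 0.0874 (range -0.338 to 0.583, 9 of 19 over 0.1). The libraries called far from their own footprints are those of D135, D5823 and PD5732, the lowest of the 19. C5696 (-0.0134) and D5802 (-0.0341) were also below 0 and were kept. TMM within each assay was added after the data were seen.

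Members and lists were chosen with earlier results of these data known. Named members are up to 5 calls each way with the largest change and a mean of at least 10 CPM in each comparison, the 2 smallest p where none was called, the 3 highest and lowest levels per subunit, and members of known role. Coordinates are those of GENCODE M21 on GRCm38.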

Additional observations from a re-analysis of the deposited data

Results flagged for a closer look

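Of 128 groups of 4 or 5 libraries looked at, 15 had a single library far from the rest. For 1 group alone chance gives about 1 in 20. The groups are chosen members read in the same libraries, so they are not separate trials and 15 of 128 is not to be set against that rate. In footprints the flagged values were Mrpl36 in diet mouse P5702 (53.2 CPM) and Mrps30 in diet mouse P5784 (68.1 CPM). Mrpl41 and Mrps18c were flagged in DFMO mouse D5823 (64.1 and 51.6 CPM). The share of footprint counts taken by the members was high in control C5812 (0.364%). In RNA, DFMO mouse D5802 stood apart for Mrpl42 (235 CPM) and Mrpl23 (278 CPM). Diet mouse P5828, a low-complexity library, stood apart for Mrpl14 (231 CPM), Mrpl1 (117 CPM), Mrpl23 (885 CPM), Mrpl12 (1120 CPM), Mrpl41 (177 CPM), Mrps33 (301 CPM) and Mrps28 (206 CPM). Its ratio of Mrpl to Mrps RNA counts was 2.83. The part of its low complexity in these values was not tested.

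For 6 members the effect of DFMO on RNA differed between the 2 diets by the interaction test of edgeR. The log2 differences were 1.50 for Mrpl16, 1.45 for Mrps21, 1.40 for Mrpl33 and for Mrps33, 1.27 for Mrps36 and 1.01 for Mrps10. Without the low-complexity libraries they were 1.24, 0.81, 1.38, 1.28, 1.36 and 0.89 in that order, and all but Mrps21 were called. Left out 1 mouse at a time in 19 fits, the call was lost in 0, 15, 14, 6, 15 and 10 of them in the same order. With no filter on low counts 2 of the 6 were called, and without the RNA libraries of D135, D5823 and PD5732 0 were.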

How the results depend on the processing

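No named member's call changed sign under any alternative run. With library totals the balance of falls and rises among all members did turn, as given above. It turned for RNA with DFMO, for efficiency with DFMO and with the combination, and for footprints of the combination against diet. Calls over all genes moved with that scaling as well. Footprint counts were the steadier ones, although footprint depth differed between groups as given above. The counts below join falls and rises. For most of these settings the share of all genes called is not given, so the counts are not results about the family. Leaving out 1 mouse gave 10 to 20 called members for DFMO against control, 28 to 36 for the combination, 15 to 27 for the combination against diet (15 without P5702), and 0 for the other 3 comparisons. The first count was 10 without C5696, C5840 or D5802. With library totals 13 members were called in the combination against diet.

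RNA counts for DFMO against control were 25 with library totals, 27 without the libraries far from their own footprints and 13 without the low-complexity ones, and 37 to 55 without 1 mouse. For the combination against control they were 21 with totals, 9 without low-complexity libraries and 33 to 51 without 1 mouse. Combination against DFMO gave 2 with DESeq2, 6 without low-complexity libraries and 0 to 1. Combination against diet gave 4 with RLE, 4 with totals, 2 without the far libraries, 13 without low-complexity ones and 2 to 11. Diet against control gave 20 with DESeq2, 9 with RLE, 0 with totals, 1 with no filter, 0 without far and 0 without low-complexity libraries, and 0 to 44 (44 without P5828, 21 without C5812). The interaction gave 16 with DESeq2, 2 with no filter, 0 without far libraries and 1 to 32 (32 without P5828).

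Efficiency counts for DFMO were 26 with totals, 12 without low-complexity libraries and 33 to 49 without 1 mouse; for the combination 21, 2 and 20 to 47 (20 without C5778). Diet gave 19 with DESeq2, 14 with RLE, 5 with TMM within each assay, 8 with totals, 0 with the replicate block, 0 without low-complexity libraries and 0 to 38 (38 without P5828). Combination against diet gave 1 without low-complexity libraries and 0 without any 1 mouse, as did combination against DFMO. The interaction gave 11 with DESeq2, 4 with RLE, 1 with TMM within each assay, 2 with totals, 6 without low-complexity libraries and 0 to 28 (28 without P5828). The mouse as a replicate block ended 3 named calls. The causes were not tested. Control RNA rests on 4 libraries, 3 of them of low complexity, which limits the RNA and efficiency counts against control and those of the interaction.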
